A study of Mus musculus with 8 samples.

Results

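The genes described here encode the mitochondrial respiratory chain and the ATP synthase of mouse liver. They were taken from the gene table by name, from symbols starting with Nduf, Uqcr, Cox4 to Cox8 or Atp5, from Cyc1 and Sdha to Sdhd, and from the mitochondrially encoded mt-Nd, mt-Co, mt-Atp and mt-Cytb genes, leaving out 6 genes named as pseudogenes (-ps). This gave 106 of 54232 listed genes, 93 on nuclear chromosomes and 13 on mitochondrial DNA, and 101 of them had enough counts to be tested. Total RNA of liver was sequenced from 4 wild-type (WT) and 4 Atp7b knockout (KO) libraries of mice aged 6 months. Atp7b encodes the copper-exporting ATPase of the liver that is defective in Wilson disease. The labels used here give neither strain, sex nor how the Atp7b allele was made, and do not say whether the 4 libraries of a genotype came from separate animals, so the p-values measure the spread between libraries.

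The respiratory chain sits in the inner mitochondrial membrane. Complexes I and II feed electrons from NADH and succinate into ubiquinone, complex III passes them to cytochrome c, and complex IV, whose catalytic centres hold copper, passes them to oxygen. The proton gradient that complexes I, III and IV build drives ATP synthase, complex V. Every complex except complex II combines subunits made from nuclear genes with subunits made from mitochondrial DNA, and liver is among the tissues rich in mitochondria.

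The libraries held between 9880253 and 27530506 gene counts. Atp7b was at 28.9, 32.0, 9.63 and 27.4 CPM (counts scaled to library size, with library sizes adjusted by the trimmed mean of M-values, TMM) in WT replicates 1 to 4 and at 8.76, 8.91, 6.50 and 7.15 CPM in the KO libraries. The library labelled WT replicate 3 was thus above every KO library but far below the other WT libraries, and values without it are given beside the main results that it moves. Its log2 CPM correlated with those of the other WT libraries at Pearson's r of 0.930 to 0.947 across 15811 genes, against 0.979 to 0.989 among the other WT libraries. The hepatocyte markers, led by Alb, were high in every library, at a summed level of 65210 to 115900 CPM in WT and 43080 to 63530 CPM in KO, with 2 of 7 called lower, at an edgeR adjusted p under 0.05 (6 without WT replicate 3, none with library totals in place of TMM). All 7 cholangiocyte markers were called higher in KO, from a summed 36.02 to 79.5 CPM in WT to 420.5 to 1022 CPM in KO. Of the other marker lists, 3 of 7 stellate cell, 3 of 5 lymphocyte and 2 of 2 neutrophil markers tested were called higher, none of 7 macrophage (151 to 540 CPM summed in WT, 335 to 806 CPM in KO) and none of 5 erythroid markers was called, and 1 of 6 endothelial markers was called lower. Among all 15811 genes tested 30.0% were called, 12.5% lower and 17.6% higher. Without WT replicate 3, when 49.3% of all genes were called, 3 macrophage, 4 lymphocyte and 1 erythroid markers were called higher and 3 endothelial markers lower, and with library totals 4 macrophage and 2 erythroid markers were called higher. The part of these shifts in the results below was not tested, and in bulk liver fewer cells of a type and less RNA per cell cannot be told apart.

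Few respiratory chain genes were called between the genotypes with all 8 libraries and TMM, and the number of calls depended on the fit. With all 8 libraries, edgeR's quasi-likelihood test with Benjamini-Hochberg adjustment over all genes tested, called at an adjusted p under 0.05, found 7 of the 101 members lower and 2 higher in KO liver. The members' share of 8.91% lay below the 30.0% of all genes. The lower members were Atp5sl, Ndufaf2, mt-Nd2, Atp5g1, Atp5a1, Sdhb and Ndufb10, and the higher ones were Cox6b2 and Ndufaf7. Most other members leaned slightly lower: 84 of 101 had a log2 fold change below 0, with a median of -0.30 for the nuclear and -0.34 for the mitochondrial genes, beside -0.05 for all genes. Of the 15803 genes with a known exon length, 7358 were above 0, and 7932 were without WT replicate 3. Without WT replicate 3 the medians were 0.07 for the nuclear and -0.06 for the mitochondrial genes, 46 of 101 were below 0, and 17 members were called lower and 8 higher, where 49.3% of all genes were called, 23.4% lower and 26.0% higher. With GC and length trends of each library removed, 28 members were called lower and 2 higher, beside 22.2% and 18.2% of all genes. When WT replicate 3 was also left out, 43 were called lower and 2 higher, beside 29.8% and 22.0% of all genes. With all 8 libraries and TMM alone, standard errors of the nuclear subunits ran from 0.14 to 0.50 on the log2 scale, Cox6b2 aside. A p that misses the threshold does not show that a gene was the same in both genotypes.

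**Figure D1:**
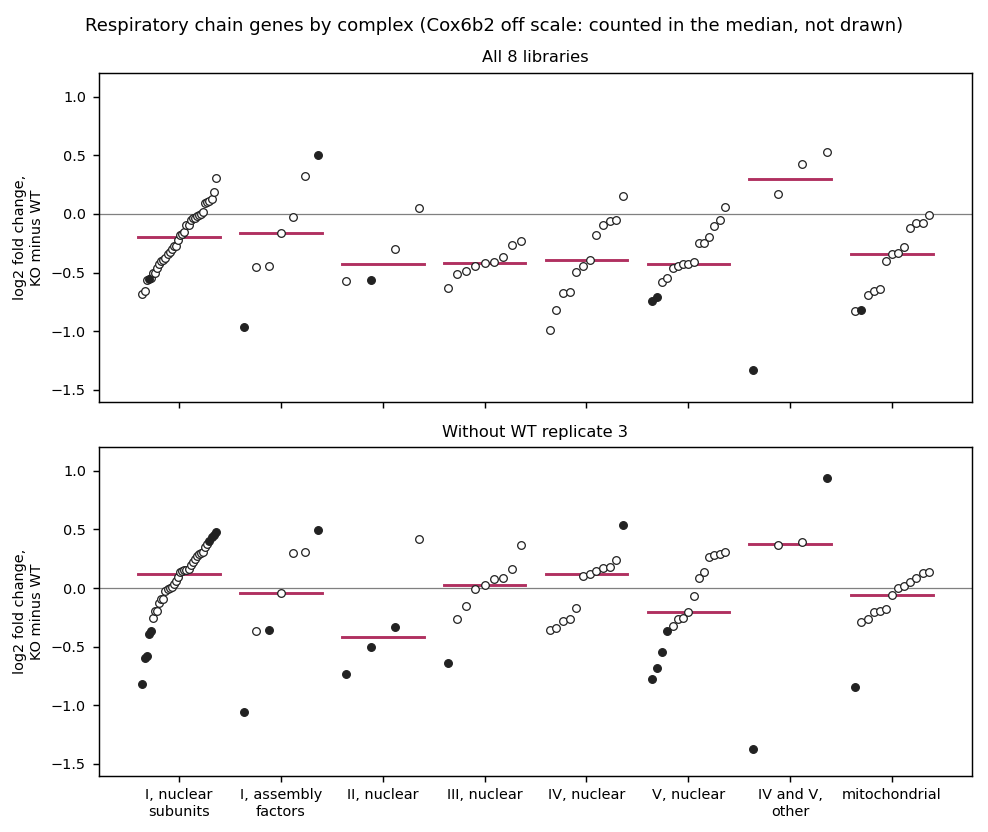
Log2 fold change (KO minus WT) of each tested member, grouped by complex and genome of origin, with all 8 libraries (top) and without WT replicate 3 (bottom). Filled points passed an adjusted p of 0.05, open points did not, and bars are group medians. In the top panel every median of subunits or assembly factors lies below 0; in the bottom panel the nuclear medians of complexes I, III and IV lie above 0, while that of complex II stays at -0.42.

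Complex I, the entry point for NADH, is the largest complex, with 36 nuclear subunit genes in the table. Only Ndufb10, an accessory subunit of the membrane arm, was called among them. Ndufb10 (ENSMUSG00000040048.14, GRCm38 chromosome 17, 24722060 to 24724478) stood at 98.8, 89.7, 84.4 and 89.3 CPM in the WT libraries and at 62.0, 55.9, 65.8 and 63.4 CPM in the KO libraries. Every KO library was below every WT library. Its log2 fold change was -0.55 ± 0.14 (SE), 1.47-fold lower, with an edgeR adjusted p of 0.0144, and the adjusted p was 0.0579 without KO replicate 2. The median over the 36 subunits was -0.20, with 28 below 0, and their WT levels ran from 10.6 to 253 CPM. Without WT replicate 3, 5 subunits were called lower (Ndufb10, Ndufa10, Ndufv1 and Ndufv3 among them) and 4 higher (Ndufa1, Ndufa2, Ndufb6 and Ndufs4), beside 23.4% and 26.0% of all genes. The median over the 36 subunits was then 0.12.

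The complex I assembly factors held a pair of changes in opposite directions. Ndufaf2, a chaperone that joins complex I late in its assembly, was at 12.0, 11.6, 8.92 and 11.9 CPM in the WT libraries and at 5.59, 4.96, 6.50 and 5.80 CPM in the KO libraries. The groups did not overlap, and WT replicate 3 was the lowest of the WT libraries. It fell by 0.96 ± 0.18 on the log2 scale (1.95-fold, edgeR adjusted p = 0.00247). Ndufaf7, a methyltransferase needed for complex I assembly, was at 15.5, 14.9, 16.1 and 17.3 CPM in WT and at 23.8, 20.6, 25.0 and 21.2 CPM in KO. All 4 KO libraries were above all 4 WT libraries. Its rise was 0.50 ± 0.15 (1.42-fold, edgeR adjusted p = 0.0276), and this call was lost when WT replicate 1 or 2 or KO replicate 1, 3 or 4 was left out, with an adjusted p of at most 0.0906. The ratio of Ndufaf2 to Ndufaf7 counts within a library, which no scaling between libraries affects, was 0.698 ± 0.105 (SD, n = 4) in WT and 0.252 ± 0.0183 (n = 4) in KO, ranging from 0.553 to 0.777 and from 0.235 to 0.274. The pair was chosen for its opposite calls without overlap, so the ratio had to separate the genotypes and adds no support. Ndufaf2 (chromosome 13, 108002715 to 108158623) is overlapped on the opposite strand by Smim15, which had a log2 fold change of 0.09, and no source used here gives the strand setting of the counts. The other 5 factors, Ndufaf1 and Ndufaf3 to Ndufaf6, were not called, at -0.45 to 0.32.

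Of the complex I genes on mitochondrial DNA, mt-Nd2 was the sole one called with all 8 libraries and TMM, and the sole one among all 13 mitochondrial genes. With each library's trend with GC content and length removed 5 of the 13 were called lower, and 11 of the 13 when WT replicate 3 was also left out, where 40.3% and 51.7% of all genes were called. It encodes a core proton-pumping subunit and lies at chrM:3914-4951. Its level was 10070, 9481, 9518 and 9881 CPM in the WT libraries and 5295, 4982, 5714 and 6041 CPM in the KO libraries. On this TMM scale the WT libraries lay close together, WT replicate 3 among them, and none came near the KO range. With library totals in place of TMM, mt-Nd2 was at -0.40 and was not called (edgeR adjusted p = 0.132). mt-Nd2 fell by 0.82 ± 0.18 on the log2 scale (1.77-fold, edgeR adjusted p = 0.00658) and by 0.84 without WT replicate 3 (adjusted p = 0.00170). Its neighbour mt-Nd1, which is cut from the same long precursor, was at 8102, 8297, 9454 and 7543 CPM in WT and at 8238, 5725, 6522 and 5817 CPM in KO. These ranges overlapped, and the log2 fold change of mt-Nd1 was -0.34 ± 0.21 (adjusted p = 0.239). The ratio of mt-Nd2 to mt-Nd1 counts was 1.18 ± 0.13 (SD, n = 4) in WT and 0.857 ± 0.163 (n = 4) in KO, and the lowest WT ratio, 1.007, was just below the highest KO ratio, 1.04. mt-Nd4, mt-Nd5 and mt-Nd6 had log2 fold changes of -0.07, -0.12 and -0.01.

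Complex II, succinate dehydrogenase, is the only complex made wholly from nuclear genes, and it also serves the citric acid cycle. The iron-sulfur subunit Sdhb (chromosome 4, 140961203 to 140979193) was at 203.5, 202.3, 259 and 234 CPM in WT and at 148, 149.6, 157 and 154 CPM in KO. The KO libraries lay close together and below all WT libraries. Sdhb fell by 0.56 ± 0.16 on the log2 scale (1.48-fold, edgeR adjusted p = 0.0201), and the call was lost without KO replicate 1, 2 or 4, with an adjusted p of at most 0.0636. Sdha, the flavoprotein that oxidises succinate, was at 433, 577, 349 and 681 CPM in WT and at 332, 364, 310 and 366 CPM in KO, so that the groups overlapped through WT replicate 3. Its log2 fold change was -0.57 ± 0.22 (adjusted p = 0.0770) and -0.73 (adjusted p = 0.00329) without that library. The membrane anchor Sdhc was at 144, 139, 137 and 157 CPM in WT and at 119, 104, 121 and 125 CPM in KO. These groups did not overlap, but the difference of -0.30 ± 0.15 was not called (adjusted p = 0.159; 0.0480 without WT replicate 3). Sdhd, the other anchor, was at 199, 247, 543 and 293 CPM in WT and at 396, 297, 335 and 303 CPM in KO. WT replicate 3 was the highest of all 8 libraries, and the log2 fold change of 0.05 with all libraries was 0.42 without it (adjusted p = 0.0568). Without WT replicate 3, 3 of the 4 subunits were called lower, where 23.4% of all genes were.

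**Figure D2:**
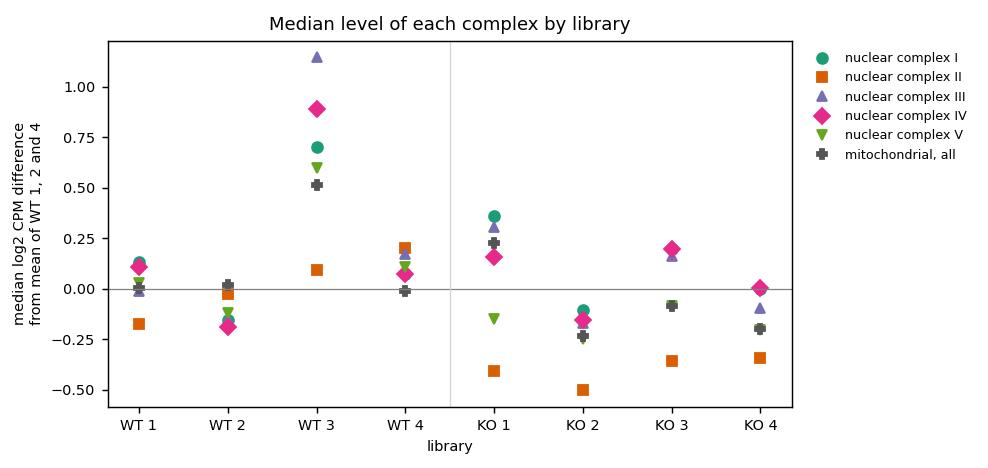
Median log2 CPM of the subunits of each complex in each library, as the difference from the mean of WT replicates 1, 2 and 4; the complex IV median leaves out Cox6b2. WT replicate 3 is the highest library for complexes I, III, IV and V and for the mitochondrial genes, with medians of 0.51 to 1.15. The 4 KO medians of complex II, -0.34 to -0.50, lie below all WT medians.

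Complex III genes all leaned lower and none was called. The 9 nuclear genes had log2 fold changes of -0.63 to -0.23, with a median of -0.42. The largest was that of Uqcrfs1, the Rieske iron-sulfur protein, at 181, 174.5, 413 and 205 CPM in WT and 167.5, 133, 169 and 158.5 CPM in KO. The genotypes did not overlap, but WT replicate 3 was far above the rest, and the value of -0.63 (adjusted p = 0.115) became -0.26 (0.137) without it. Uqcrc1, a core subunit facing the matrix, moved the other way: WT replicate 3 was its lowest WT library, at 137 CPM beside 188 to 215 CPM in the others, and the difference of -0.51 (adjusted p = 0.0656) became -0.64 (0.00286) without it. Without that library the median of the 9 genes was 0.03. The mitochondrial member of this complex, mt-Cytb, was at 14750, 15220, 22390 and 16260 CPM in WT and at 17850, 11590, 12210 and 12810 CPM in KO. The groups overlapped through KO replicate 1, and the log2 fold change was -0.33 ± 0.24 (adjusted p = 0.333).

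Complex IV held the gene that changed most. Cox6b2, known in mammals as the testis form of a subunit that binds on the outer face of the complex, had 2, 0, 0 and 0 counts in the WT libraries and 199, 205, 310 and 197 counts in the KO libraries. In CPM these were 0.176 and 0 for WT replicates 1 and 2 to 4, and 12.6, 9.42, 15.7 and 9.45 in KO. Every KO library had the transcript and 3 of 4 WT libraries had no count of it. The ratio of KO to WT counts, scaled to depth, was 339, with a 95% interval of 93.5 to 2800 that covers counting error only (edgeR adjusted p = 5.71e-06). The call held without WT replicate 3 (adjusted p = 4.38e-07) and with library totals in place of TMM (2.92e-06).

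The somatic form of the same subunit, Cox6b1, was at 161, 146, 156 and 187 CPM in WT and at 186, 179, 187 and 171 CPM in KO. The genotypes overlapped, and its log2 fold change was 0.15 ± 0.15 (adjusted p = 0.497). Cox6b2 counts came to 6.50% ± 1.45 (SD, n = 4) of Cox6b1 counts in KO, with a range of 5.25% to 8.42%, and to 0.0273% ± 0.0546 (n = 4) in WT. Cox6b1 thus remained the more abundant of the pair in every library. Cox6b2 (ENSMUSG00000051811.14) lies at chr7:4751792-4753094 on the minus strand.

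The promoters of this gene pair are shown because the genes encode forms of the same subunit and only Cox6b2 was called. They are the 250 bases before each start site in RefSeq's GRCm38.p6 annotation, chr7:4753095-4753344 for Cox6b2 and chr7:30626115-30626364 for Cox6b1, both on the minus strand and written 5′ to 3′ with CG dinucleotides in capitals.
Cox6b2: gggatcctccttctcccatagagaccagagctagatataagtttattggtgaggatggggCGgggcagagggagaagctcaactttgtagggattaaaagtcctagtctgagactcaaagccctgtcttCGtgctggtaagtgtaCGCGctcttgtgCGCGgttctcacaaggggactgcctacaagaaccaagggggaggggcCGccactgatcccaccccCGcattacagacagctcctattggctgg
Cox6b1: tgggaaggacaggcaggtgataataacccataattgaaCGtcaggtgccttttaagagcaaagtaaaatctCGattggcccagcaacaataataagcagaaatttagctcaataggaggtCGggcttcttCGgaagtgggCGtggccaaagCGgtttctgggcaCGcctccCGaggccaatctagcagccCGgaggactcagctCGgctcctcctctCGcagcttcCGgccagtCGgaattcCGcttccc
Both windows had similar GC contents, 54.8% for Cox6b2 and 54.0% for Cox6b1, and they held 8 and 14 CG dinucleotides. The NRF1, YY1 and ETS motifs, known from promoters of respiratory genes, were searched on both strands of the windows from 250 bases before to 50 bases after the start, in the 76 nuclear members and all 27025 genes with such a window. The palindromic NRF1 core was in 9.21% of the members and 1.07% of all genes, the YY1 motif in 6.58% and 0.840%, and the ETS motif CCGGAAGT in 6.58% and 4.31%. No motif contains another. Neither printed window held any of them, and of the called nuclear members with a window only Atp5sl held one, the YY1 motif.

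Among the other isoform genes of complex IV, the forms known from lung, muscle, brown fat or testis were near 0. Cox4i2 had 4 counts over the WT libraries and 11 over the KO libraries, Cox8b 3 and 4, Cox7b2 0 and 2, and Cox8c none in either. Cox6a2, the heart and muscle form, had 1 and 13 counts. Scaled to depth, the KO level was 9.66 times the WT level, and counting error alone allows anything from 1.45 to 411 times. Skeletal muscle markers were also near 0, at a summed 0.922 to 1.501 CPM in WT and 2.40 to 3.15 CPM in KO, and the 1 of them with enough counts to be tested, Mylpf, was called higher (0.79, edgeR adjusted p = 0.0325). The part of muscle transcripts in these values was not tested. Cox7a1, another muscle form, was at 1.06, 0.922, 2.26 and 1.29 CPM in WT and 1.21, 1.24, 1.32 and 1.15 CPM in KO, with overlap (log2 fold change -0.10, adjusted p = 0.842).

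Cox4i1, a regulatory subunit, was at 326, 238, 365 and 303 CPM in WT and at 198, 199, 273 and 238 CPM in KO. The ranges overlapped, and the log2 fold change was -0.44 ± 0.19 (adjusted p = 0.114). Cox7a2 was at 175.5, 125, 713 and 155 CPM in WT and at 285, 176, 242 and 189 CPM in KO, and Ndufa4, a complex IV subunit first assigned to complex I, at 379, 352, 1630 and 413 CPM in WT and 548, 347, 451 and 400.2 CPM in KO. In both genes WT replicate 3 was far above every other library. Their log2 fold changes of -0.39 (adjusted p = 0.607) and -0.67 (0.322) became 0.54 (0.0328) and 0.18 (0.405) without it. Cox6a1 and Cox8a, at 169 ± 43.1 and 174 ± 69.8 CPM in WT (SD, n = 4) and 162 ± 25.4 and 168 ± 32.8 CPM in KO (n = 4), differed by -0.06 and -0.05. Cox7a2l, which joins complexes III and IV into supercomplexes, had a log2 fold change of 0.17 (adjusted p = 0.605), and the hypoxia-responsive Ndufa4l2 one of 0.42 (0.307), at 0.860 to 2.03 CPM over the 8 libraries.

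In ATP synthase 7 of the 15 nuclear subunit genes had no overlap between the genotypes, beside 2 of 4 in complex II, 18 of all 101 members tested and 32.1% of all genes. Only Atp5a1 and Atp5g1 passed the test, and both were lower in KO. Atp5a1, the catalytic-head alpha subunit (chromosome 18, 77773729 to 77782869), was at 831, 905, 777 and 961.5 CPM in WT and at 527, 512, 509.6 and 572 CPM in KO. All KO libraries were well below all WT libraries, and it fell by 0.71 ± 0.16 on the log2 scale (1.64-fold, edgeR adjusted p = 0.00745). The gene Haus1 overlaps it on the opposite strand with 325 counts over the WT and 623 over the KO libraries.

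Atp5g1, Atp5g2 and Atp5g3 encode the same mature protein of the membrane ring. Atp5g1 (chromosome 11, 96068852 to 96075670) was at 145, 122, 173 and 162 CPM in WT and at 90.7, 89.0, 99.8 and 80.8 CPM in KO, with no overlap. It fell by 0.74 ± 0.17 on the log2 scale (1.67-fold, edgeR adjusted p = 0.00698). Atp5g3, the gene of this trio with the most counts per kb of exon, had a log2 fold change of -0.42 (adjusted p = 0.134), and Atp5g2 one of 0.06 (0.870). Per kb of exon the 3 genes were at 30.7, 45.6 and 188 CPM in WT and 18.3, 47.6 and 140 CPM in KO, in the order Atp5g1, Atp5g2, Atp5g3. The other subunits without overlap, Atp5g3, Atp5b, Atp5c1, Atp5d and Atp5h, were at -0.46 to -0.25 and were not called. Atp5h has a near-identical pseudogene and its counts are uncertain.

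Of all members, Atp5sl had the largest drop. Its older name sets it beside ATP synthase, but in human cells its product takes part in the assembly of complex I. Atp5sl (chromosome 7, 25619414 to 25625551) was at 35.99, 27.2, 31.0 and 36.5 CPM in WT and at 11.6, 11.1, 14.1 and 15.1 CPM in KO. The highest KO library was far below the lowest WT library, and WT replicate 3 lay within the WT range. It fell by 1.33 ± 0.18 on the log2 scale (2.52-fold, edgeR adjusted p = 0.000291). Atp5s, its paralogue, was at 6.33, 5.59, 15.6 and 6.69 CPM in WT and 13.4, 9.65, 13.6 and 11.5 CPM in KO. WT replicate 3 was the highest of all 8 libraries there, and the log2 fold change of 0.52 (adjusted p = 0.242) was 0.94 (0.00102) without it. The inhibitor of ATP synthase, listed as Atpif1, is not a member by name but acts on this complex. It was at 13.3, 10.2, 31.3 and 13.5 CPM in WT and at 58.9, 43.3, 57.5 and 37.1 CPM in KO, with no overlap. Atpif1 rose by 1.55 ± 0.34 on the log2 scale (2.92-fold, edgeR adjusted p = 0.00555).

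**Figure D3:**
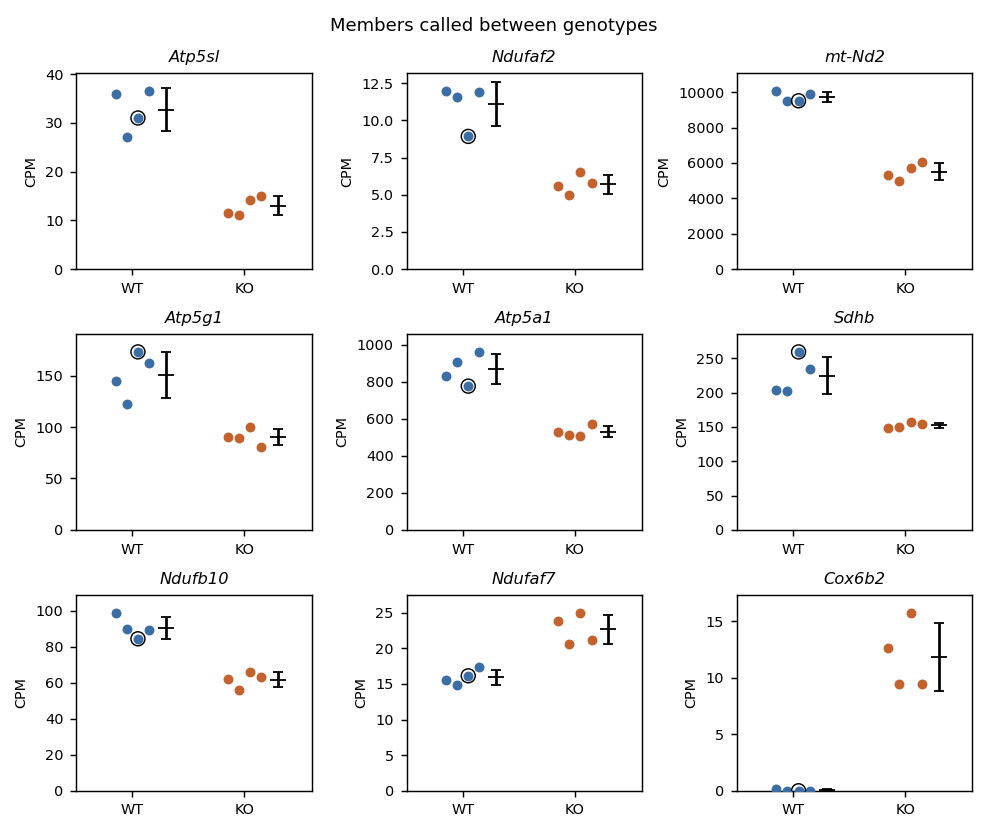
TMM-scaled CPM of the 9 called members in each WT (blue) and KO (orange) library, with the mean and SD of each genotype (n = 4) beside the points; the circled point is WT replicate 3. The genotypes do not overlap in any panel, and Cox6b2 is at or near 0 in all WT libraries.

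The 13 mitochondrial genes together took 7.27% ± 0.134 of all counts in WT (SD, n = 4, range 7.09% to 7.41%) and 8.39% ± 1.19 in KO (n = 4, range 7.39% to 10.1%). The ranges met at 7.39% and 7.41%, and KO replicate 1 was the highest library. The 93 nuclear genes took 1.29% ± 0.273 and 1.37% ± 0.114, with WT replicate 3 at 1.69%, the other WT libraries at 1.11% to 1.195% and the KO libraries at 1.27% to 1.52%. As shares of raw counts these figures do not use TMM, and they are higher in KO than in WT, while the TMM-scaled levels were mostly lower. The TMM factors were 0.716 to 0.952 in WT and 1.08 to 1.22 in KO. With library totals alone the median of all genes moved from -0.05 to 0.37 and those of the nuclear and mitochondrial members to 0.16 and 0.09. Scaling moves all genes of a library together. The place of both groups below the median of all genes therefore could hardly change with it, and its persistence is no check. With totals 1 member was called lower (Atp5sl, -0.91, adjusted p = 0.00527) and 11 higher, where 34.4% of all genes were called, 4.06% lower and 30.4% higher.

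mt-Co1 and mt-Co2, which hold the copper centres of complex IV, were not called. mt-Co1 was at 29260, 30200, 44740 and 34810 CPM in WT and at 44030, 28860, 30560 and 28130 CPM in KO, with overlap, and its log2 fold change was -0.08 ± 0.25 (adjusted p = 0.845). mt-Co2 was at 89.8, 84.4, 240.2 and 76.1 CPM in WT and at 119.5, 72.3, 98.6 and 80.6 CPM in KO. WT replicate 3 alone was above all others, and the log2 fold change of -0.40 (adjusted p = 0.445) was 0.14 (0.522) without it. The same held for the third core subunit mt-Co3, at 56.5, 59.6, 222 and 53.1 CPM in WT and 75.0, 47.4, 62.9 and 55.9 CPM in KO, and for the ATP synthase subunits mt-Atp6 and mt-Atp8, whose WT replicate 3 values of 178.5 and 8.35 CPM stood beside 42.7 to 47.5 and 2.15 to 2.46 CPM in the other WT libraries. The log2 fold changes of mt-Co3, mt-Atp6 and mt-Atp8, -0.69, -0.66 and -0.64, became 0.08, 0.13 and 0.00 without it. With the GC and length trends also removed, mt-Co3 was at -0.54 (edgeR adjusted p = 0.00255), mt-Atp6 at -0.49 (0.00589) and mt-Co2 at -0.47 (0.0114) without that library, so the sign of these 3 genes depended on that step. mt-Nd3 (-0.83, adjusted p = 0.174) became -0.21 (0.499), and mt-Nd4l was at only 1.32 to 2.67 CPM over the 8 libraries.

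Per kb, the mitochondrial genes fell into 2 levels. The 6 genes in a row from mt-Co2 to mt-Nd4l were at 7.82 to 179 CPM per kb in WT, whereas the other 7 were at 3153 (mt-Nd5) to 22490 (mt-Co1) CPM per kb. Between neighbours, mt-Co1 at 22490 CPM per kb stood beside mt-Co2 at 179, and mt-Nd4l at 7.82 beside mt-Nd4 at 4932. KO showed the same 2 levels, with 6.48 to 135.6 CPM per kb for the 6 genes. Of these 6, mt-Co2, mt-Atp6, mt-Co3, mt-Nd3 and mt-Nd4l match unprocessed pseudogenes on chromosome 1 at 99.7% to 100% identity over nearly their whole length, and mt-Nd4 matches another over 876 bases, 63.6% of the gene. mt-Co1 has a copy at 97.6% identity on chromosome 2. The copies had counts of their own: that of mt-Co3 had 1206 to 3070 counts a library beside 642 to 1567 for mt-Co3 itself. The 7 mitochondrial genes with a copy are therefore uncertain, as are the nuclear genes Ndufs3, Uqcrb, Atp5o, Atp5h and Atp5l. mt-Nd2, the called gene, had no such copy.

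The first 60 aligned bases of mt-Co2 (chrM:7013-7072) and of its chromosome 1 copy (chr1:24615506-24615565, minus strand) are shown with the same stretch of mt-Nd3 (chrM:9459-9518) and its copy (chr1:24613060-24613119, minus strand), all GRCm38 and 5′ to 3′, because a read from a stretch that both places share could be assigned to either. Capitals mark bases that differ within a pair.
mt-Co2: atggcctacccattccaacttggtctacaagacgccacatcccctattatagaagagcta
mt-Co2 copy RP23-8J15.2: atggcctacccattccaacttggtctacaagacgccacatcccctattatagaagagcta
mt-Nd3: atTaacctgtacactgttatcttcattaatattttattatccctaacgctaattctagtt
mt-Nd3 copy RP23-8J15.5: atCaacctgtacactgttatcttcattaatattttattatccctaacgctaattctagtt
The mt-Co2 pair was identical in this stretch and over all 681 aligned bases, and the mt-Nd3 pair differed at 1 base of 345.

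**Figure D4:**
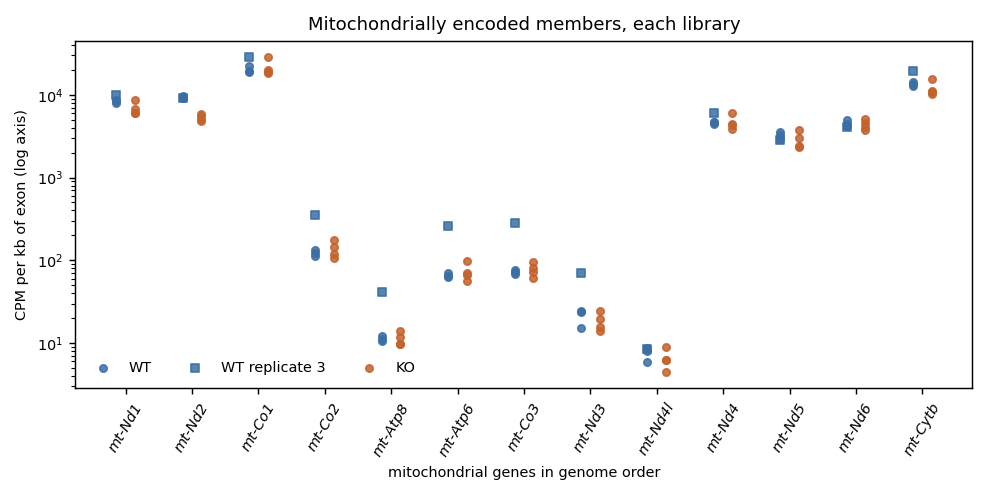
Level of each mitochondrial gene in each library, as CPM per kb of exon on a log axis, in the order of the mitochondrial genome; squares are WT replicate 3. The genes from mt-Co2 to mt-Nd4l lie far below the others in every library, and WT replicate 3 is the top WT library for 5 of those 6.

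WT replicate 3 differed from the other WT libraries along gene length as well. Its nuclear member levels were above the mean of the other WT libraries in 67 of 88 genes, from -1.50 (Ndufa10) to 2.24 (Cox7a2) with a median of 0.72 on the log2 scale, where the median of all genes was -0.04. The median was 1.02 for the 37 members with under 1500 bases of exon and 0.32 for the 22 with 3000 bases or more. Spearman's rho with exon length was -0.274 across the 88 genes, beside -0.188 across all genes. Other libraries, each against the rest of its genotype, had length trends as well. Their rho ran from -0.262 (KO replicate 3) to 0.392 (WT replicate 2) across the 88 members. Across all genes it ran from -0.226 (KO replicate 3) to 0.323 (KO replicate 2). The KO against WT difference itself ran with exon length, at a rho of -0.284 across the 88 members and -0.045 across all genes. Without WT replicate 3 these were -0.428 and -0.103. These are descriptions across genes of the same libraries. The called members Atp5sl, Ndufaf2, Atp5a1 and Atp5g1 have 2978 to 4912 bases of exon, Sdhb has 2239, and Ndufb10 and mt-Nd2 have 1217 and 1038. Of the members called higher, Ndufaf7 has 3503 bases and Cox6b2 1108. With each library's trend with GC content and length removed (the offset), 28 members were called lower and 2 higher, where 40.3% of all genes were called, 22.2% lower and 18.2% higher. The 28 included all 7 members called lower above. The share of members called lower in that fit, 28 of 101, exceeded the 22.2% of all genes. With the offset and without WT replicate 3, 43 of 101 members were called lower and 2 higher, where 51.7% of all genes were called, 29.8% lower and 22.0% higher. In that fit 72 of 101 members were below 0, with medians of -0.15 for the nuclear and -0.62 for the mitochondrial genes, all 13 of which were below 0. DESeq2 on all libraries called 15 members lower, where 35.5% of all genes were called, 16.2% lower and 19.4% higher.

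**Figure D5:**
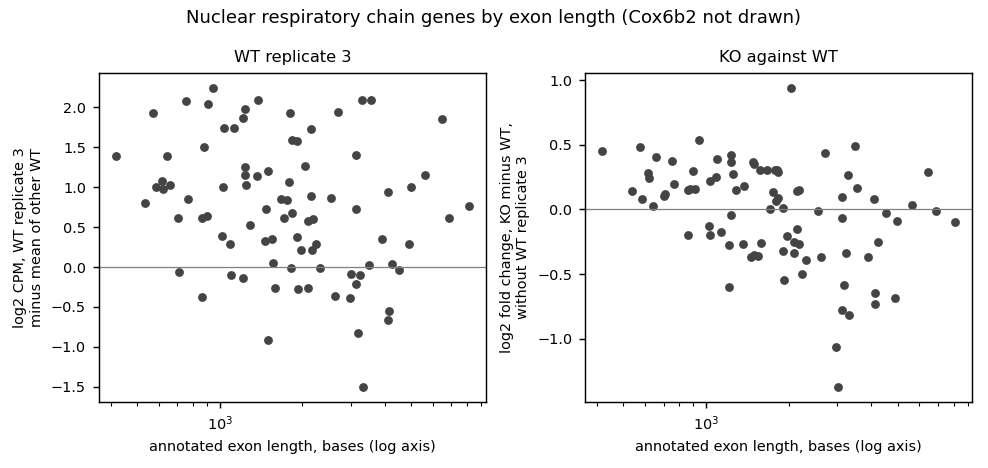
Exon length of each nuclear member (log axis) against its log2 difference between WT replicate 3 and the other WT libraries (left) and against its log2 fold change, KO minus WT, without WT replicate 3 (right); Cox6b2 is not drawn. Short genes lie mostly above 0 in both panels, with rank correlations over the 88 members of -0.274 and -0.428.

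The library numbers in the labels fall into runs of neighbouring numbers that the labels do not explain. In the run that holds KO replicate 3 and WT replicate 3, the nuclear members had a median log2 difference of -0.59, with 73 of 88 below 0, and the mitochondrial genes one of -0.74. In the run that holds KO replicate 4 and WT replicates 2 and 4, the medians were 0.01, with 43 of 88 below 0, and -0.28. The same counts over all genes were not made. The genotypes did not overlap in any called gene, so the direction was bound to be the same in both runs and checks nothing. Atp5sl was at -1.11 and -1.04, Ndufaf2 at -0.43 and -0.96, and mt-Nd2 at -0.74 and -0.68. Sdhb was at -0.72 and -0.49, Ndufb10 at -0.36 and -0.49, and Atp5a1 at -0.61 and -0.70. Atp5g1 was at -0.79 and -0.80, Ndufaf7 at 0.62 and 0.39, and Cox6b2 at 5.02 and 4.32. These differences were taken after adding 0.5 to each CPM value. Cox6b2 was at 0 CPM in the WT libraries of both runs, so the added 0.5 set the size of its values. With the run of numbers as a term in the edgeR fit, Atp5sl (adjusted p = 0.00940), Atp5g1 (0.0320) and Cox6b2 (0.000147) were called. KO replicates 1 and 2 and WT replicate 1 lay in runs without the other genotype. That fit therefore compared the genotypes only through KO replicates 3 and 4 and WT replicates 2, 3 and 4.

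Genes that assemble, feed or regulate the chain were listed by role, and a value in parentheses after a log2 fold change is its edgeR adjusted p. Medians of the 5 assembly lists ran from -0.30 to 0.16, beside -0.05 for all genes. For the counts without WT replicate 3 in these lists, 23.4% of all genes were called lower and 26.0% higher in that fit. Among assembly genes not named Ndufaf, Foxred1 fell by 0.98 ± 0.17 (edgeR adjusted p = 0.00168) and Ecsit by 0.74 (0.0121) on the log2 scale, and Lyrm2 rose by 0.95 (0.00276), which made 3 of 8 complex I genes, beside 30.0% of all genes called. None of 4 complex II or 6 complex III assembly genes was called, while without WT replicate 3, 2 for complex II were called higher and 1 for complex III lower. Of 19 for complex IV, Sco2 and Coa5 fell and Coa4 rose, and 4 were lower and 4 higher without WT replicate 3. Sco2, which delivers copper to the mt-Co2 protein, was at 24.5, 16.2, 20.5 and 12.6 CPM in WT and at 6.54, 5.56, 8.38 and 7.96 CPM in KO, with no overlap, and fell by 1.37 ± 0.24 (2.58-fold; adjusted p = 0.00166). Coa5 changed by -0.50 (0.0406) and Coa4 by 0.71 (0.0315). Of 3 for complex V, Atpaf2, which helps to build the catalytic head, fell by 0.52 (0.0362).

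Of 15 electron carriers and feeders tested, 2 fell and 1 rose, with a median of -0.13 (4 and 3 without WT replicate 3). Etfdh, which passes electrons from fatty acid oxidation to ubiquinone, was at 270, 342, 305 and 400.0 CPM in WT and 164, 149, 168 and 192 CPM in KO. These did not overlap, and it fell by 0.97 ± 0.18 on the log2 scale (edgeR adjusted p = 0.00235). The glycerol phosphate dehydrogenase Gpd2 changed by -0.77 (0.0260) and the ubiquinone synthesis gene Coq7 by 0.56 (0.0144). Of 19 genes of mitochondrial DNA maintenance and expression (median -0.28), the polymerase genes Polg and Polg2 changed by -0.66 (0.00655) and -0.95 (0.00725), and Mterf2, a factor that binds mitochondrial DNA, by 1.11 (0.0198). Without WT replicate 3, 7 of these 19 were called lower and 3 higher, beside 23.4% and 26.0% of all genes.

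Of 13 nuclear regulators of these genes tested, 7 were called lower and none higher, with a median of -0.75, beside 12.5% of all genes called lower. Without WT replicate 3 they were 9 of 13, beside 23.4% of all genes. With library totals 1 was lower and 1 higher, beside 4.06% and 30.4% of all genes. The coactivator Ppargc1a was at 9.06, 10.02, 15.3 and 21.5 CPM in WT and at 6.86, 6.57, 4.88 and 5.95 CPM in KO. No KO library reached the lowest WT value, and it fell by 1.21 ± 0.28 on the log2 scale (edgeR adjusted p = 0.00829). The nuclear receptor Esrrg changed by -1.24 (0.00879) and Yy1 by -0.63 (0.0111). Markers of mitochondrial content were mixed (median -0.23), and 2 of 17 were called, beside 30.0% of all genes. They were Phb2, an inner membrane scaffold, at -0.78 (0.00941) and Slc25a4 at 2.21 ± 0.19 (2.00e-05). Without WT replicate 3, 5 of the 17 were lower and 3 higher. With the GC and length offset 6 were lower and 1 higher, beside 22.2% and 18.2% of all genes. Slc25a4, the adenine nucleotide carrier typical of heart and muscle, was at 5.19, 3.93, 3.96 and 4.46 CPM in WT and at 17.1, 18.1, 21.3 and 24.8 CPM in KO, so that all KO libraries were higher. Of 76 mitochondrial ribosome genes only Mrpl49 was called, at -0.57 (0.0118), with a median of -0.08. Without WT replicate 3, 6 of these genes were lower and 18 higher, beside 23.4% and 26.0% of all genes. With library totals, the falls of Sco2, Etfdh and Ppargc1a among the named genes of these lists still passed (edgeR adjusted p 0.0168, 0.0426 and 0.0451). So did the rises of Lyrm2, Coa4, Coq7, Mterf2 and Slc25a4. With the run of library numbers as a term, Foxred1, Lyrm2, Sco2, Etfdh, Polg2, Mterf2, Ppargc1a and Slc25a4 kept their calls. The other named genes of these lists, Coa4 and Coq7 among them, lost theirs in that fit.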

How the data were processed

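The deposited table holds raw counts per gene, as whole numbers, for the 8 liver libraries. The submitters' processing notes name FastQC, cutadapt, STAR and the mm10 genome; the counting program, strand setting and annotation were not given in the sources used here. Libraries were grouped by the genotype in the labels. The members and gene lists were chosen with earlier results of these data known.

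Genes were filtered with filterByExpr, scaled by TMM and tested with edgeR 4.0.16 (quasi-likelihood, genotype only, R 4.3.3), with Benjamini-Hochberg adjustment over the 15811 genes tested and calls at an adjusted p under 0.05. Log2 fold changes are KO minus WT. Members known only by summed counts were compared by a ratio with an exact 95% counting interval, and a floor of 3 counts applies to a count of 0. Values per library are given for Atp7b, the mitochondrial genes, complex II, the isoform pairs, the ATP synthase inhibitor, and up to 3 called genes per direction with the lowest p in each complex and list; Uqcrfs1, Uqcrc1, Atp5g2, Atp5g3 and Atp5s were added after their values were seen. A result for 1 member is not reported here. Gene positions and exon lengths came from GENCODE M21 (GRCm38), copies from BLAST 2.17.0 of its transcripts (at least 97% identity over at least 50% of the length), and promoters from RefSeq GRCm38.p6, which matched 76 of 93 nuclear members. The fitting script was tested on simulated data. Alternatives used DESeq2 1.42.0, limma 3.58.1 (voom), other scalings and filters, a stricter threshold, the run of library numbers as a term, a GC and length offset (mgcv 1.9.3), and each library left out in turn. An offset fit that also left out WT replicate 3 was added after seeing the data.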

Additional observations from a re-analysis of the deposited data

Results flagged for a closer look

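Among 116 groups of 4 libraries looked at, 15 had a highest or lowest library whose gap to the nearest other, divided by the range of the group, was above Dixon's 95% critical value for 4 samples. Chance flags about 5% of such groups. WT replicate 3 was the library in 11 of the 15.

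In WT replicate 3 the mitochondrial genes mt-Nd4 (8223 CPM, others 6124 to 6433), mt-Co2 (240.2, others 76.1 to 89.8), mt-Co3 (221.8, others 53.1 to 59.6), mt-Atp6 (178.5, others 42.7 to 47.5) and mt-Atp8 (8.352, others 2.15 to 2.46) were higher than in the other WT libraries. So were the nuclear genes Cox7a2 (713.1 CPM, others 125 to 175.5), Ndufa4 (1630 CPM, others 352 to 413), Atpif1 (31.29 CPM, others 10.2 to 13.5) and Yy1 (77.15 CPM, others 59.6 to 62.3). Ndufaf2 (8.919 CPM, others 11.6 to 12.0) and Polg (35.39 CPM, others 42.9 to 43.8) were lower there than in the other WT libraries.

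In the KO group, mt-Co1 was far from the others in replicate 1 (44030 CPM, others 28130 to 30560) and Ndufa4l2 in replicate 3 (2.032 CPM, others 1.24 to 1.27). Cox6b2 in WT replicate 1 (0.176 CPM) and Cox6a2 in WT replicate 2 (0.06145 CPM) stood alone because the other WT libraries had no count of these genes.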

How the results depend on the processing

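Members called lower numbered 15 with DESeq2, 1 with library totals, 2 with the run of library numbers as a term, 28 with the GC and length offset and 43 with that offset without WT replicate 3, and 5 to 17 when each library was left out. Members called higher numbered 11 with totals and 1 without the filter, at an adjusted p under 0.01 and with the number-run term, and 1 to 8 when each library was left out. The 17 lower and 8 higher calls were those without WT replicate 3, where 23.4% of all genes were called lower and 26.0% higher. With DESeq2 16.2% of all genes were called lower, and with totals 4.06% lower and 30.4% higher. With the offset 22.2% of all genes were called lower, and 29.8% when WT replicate 3 was also left out. Over all genes 2872 were called at an adjusted p under 0.01, 3101 with the number-run term and 8495 with the offset without WT replicate 3, and 3644 to 8104 when each library was left out. The nuclear median was 0.16 with totals and -0.37 to 0.072 with libraries left out. The mitochondrial median was 0.094 with totals, -0.62 with the offset without WT replicate 3, and -0.49 to -0.062 with libraries left out. The mitochondrial share was 8.63% in WT without the 10 most abundant nuclear genes, and 85.01% in WT and 85.8% in KO over respiratory chain counts alone. The cause of these shifts was not tested.

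The following changes of sign concern log2 fold changes of genes not called with all 8 libraries. With totals, mt-Nd1 was at 0.081, mt-Nd4 at 0.36, mt-Nd4l at 0.13, mt-Nd5 at 0.29, mt-Nd6 at 0.40, mt-Cytb at 0.11, mt-Co1 at 0.36, mt-Co2 at 0.094, Sdhc at 0.12, Cox4i1 at 0.0053, Cox6a1 at 0.39, Cox7a1 at 0.35, Cox7a2 at 0.15 and Cox8a at 0.42. With the upper quartile, mt-Nd4 was at 0.051, mt-Nd6 at 0.12, mt-Co1 at 0.0465, Cox6a1 at 0.065, Cox7a1 at 0.026 and Cox8a at 0.080. mt-Nd6 was at 0.0115 with no filter and at 0.0092 with a stricter one. Sdhd was at -0.19 with the number-run term and -0.086 with the offset, where Cox6a1 was at 0.029. With the offset without WT replicate 3, Cox6a1 was at 0.11, Cox6b1 at -0.071, Cox7a1 at 0.11, Cox7a2 at 0.34 and Cox8a at 0.26. With libraries left out, mt-Nd4 ranged from -0.22 to 0.018, mt-Nd6 from -0.089 to 0.056, mt-Co1 from -0.26 to 0.052, mt-Co2 from -0.56 to 0.14, mt-Co3 from -0.89 to 0.084, mt-Atp6 from -0.86 to 0.13, mt-Atp8 from -0.84 to 0.0004, Sdhd from -0.13 to 0.42, Cox6a1 from -0.18 to 0.10, Cox7a1 from -0.26 to 0.15, Cox7a2 from -0.63 to 0.54, Cox8a from -0.21 to 0.24 and Ndufa4 from -0.88 to 0.18.

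Ndufb10, Sdhb and Ndufaf7 lost their calls without the filter, Sdhb also with the upper quartile and Ndufaf7 also with the offset. RLE factors, TMM on nuclear genes and limma-voom changed no call or sign of a named gene. The replicate numbers follow accession order and tie no WT library to a KO library, so they were not used for pairing. The run of library numbers, which the labels do not explain, was fitted as a term instead. Of the called members only Atp5sl, Atp5g1 and Cox6b2 kept their calls in that fit. It compared the genotypes only within the runs that hold both, and so through fewer libraries. Counts of 0 to 4 over a genotype, as for the muscle and testis isoforms, limit what depth can show.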
